A study of Saccharomyces cerevisiae with 4 samples.

Results

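The 31 genes described here encode the enzymes of the tricarboxylic acid (TCA) cycle, the glyoxylate cycle and gluconeogenesis of budding yeast (Saccharomyces cerevisiae), together with the transporters and acetyl-CoA synthetases that feed them. They were taken by gene symbol, and all 31 were found among the 7126 genes of the deposited table. Poly(A) RNA had been sequenced from a strain labelled T4V and from a wild-type strain (WT), with 2 libraries of each. T4V is a mutation of the C-terminal domain (CTD) of RNA polymerase II, in which valine takes the place of threonine at position 4 of the repeated heptad. The title of the series ties this residue to transcription and to Htz1, a histone variant placed by chromatin remodelling. The sources used here do not give the strain background, the medium, the growth phase or whether the libraries of a genotype came from separate cultures, so the p-values measure only the spread between these libraries.

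In the mitochondrion, the TCA cycle joins acetyl-CoA to oxaloacetate and oxidises the product back to oxaloacetate, which yields NADH, FADH2 and precursors for amino acids. The glyoxylate cycle, in the cytosol and the peroxisome, skips the steps that release CO2 and lets yeast grow on ethanol, acetate or fatty acids, and gluconeogenesis then makes sugar phosphates from its products. Several steps are carried out by isoenzymes in different compartments, and many of these genes are repressed while glucose is plentiful.

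Sequencing depth was close between the genotypes. The RPKM scale (read counts divided by gene length and library size) rested on 3355000 and 4261000 reads in T4V libraries A and B, against 4068000 and 3655000 reads in WT libraries A and B. For a transcript of 1 kb, 1 read equalled 0.298 and 0.235 RPKM in the T4V libraries, against 0.246 and 0.274 RPKM in the WT libraries. RPKM does not show the altered codons, so each genotype rests on its label. Across all 5935 genes tested with limma, 11.7% were called higher in T4V (692 genes) and 6.25% lower (371 genes) at a Benjamini-Hochberg adjusted p under 0.05. After median-of-ratios scaling these shares were 8.64% and 8.48%, and after quantile normalization 7.63% and 7.55%.

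Of the 31 genes, 30 passed the filter on low values (at least 1 RPKM in 2 or more libraries), 6 rose and 2 fell in T4V by limma. Isocitrate dehydrogenase and citrate synthase genes (IDP2, IDP1 and CIT1) were among the 6 that rose, as were LSC2, SDH2 and MDH1. The 2 that fell were MDH2 and MDH3, the genes of the cytosolic and the peroxisomal malate dehydrogenase. The share that rose, 6 of 30, stands beside the 11.7% of all tested genes, and the share that fell, 2 of 30, beside the 6.25%. The members were chosen with earlier results of these data known, so these shares are not an independent test. The median log2 fold change (T4V minus WT, on the log2(RPKM + 1) scale, which understates the change of low genes) was 0.21 over the 30 genes and 0.07 over all genes tested. Fold changes were above 0 for 27 of the 30 genes, while 59.4% of all tested genes lay above 0. Both T4V libraries stood above both WT libraries for 21 of the 31 genes and below them for 3, where these shares were 38.6% and 23.4% among all tested genes. By compartment, 5 of the 16 mitochondrial enzymes tested rose and their median log2 fold change was 0.24. Of the 11 cytosolic or peroxisomal enzymes tested, 1 rose and 2 fell, with a median of 0.17. ACS1, ACS2 and JEN1 were placed in neither group, and FUM1, found in mitochondrion and cytosol, was counted as mitochondrial. The difference between these compartments was not tested. The groups also differed in level. IDP3, ICL1, MLS1 and FBP1 of the cytosolic or peroxisomal group had a mean under 10 RPKM, as did CIT3 alone of the mitochondrial group. These low genes had SE of 0.23 to 0.47 in log2, so compartment was not separated from level here. RPKM from a whole culture cannot tell more cells with a transcript from more transcript per cell.

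The 2 scalings changed which genes were called. After median-of-ratios scaling, and after quantile normalization, 5 members were higher and 3 were lower, since MDH1 no longer passed and ACS2 did. Voom on the recovered reads called 13 members higher and 3 lower, where it called 17.9% of all tested genes higher and 10.4% lower. The members it added were CIT2, IDH2, KGD1, KGD2, SDH1, SDH4 and PCK1, all higher, and ACS2, lower. When 1 T4V library was left out and the gene filter was kept from the 4 libraries, none of the 8 calls held by limma. Most calls over all genes were lost in these fits too, which leave 1 T4V library. With that filter, the log2 fold change of MDH2 was -0.54 without WT library A and -0.40 without WT library B. That of MDH3 was -0.44 without WT library A and -0.40 without WT library B. With the filter applied to the 3 libraries fitted, the members called varied with the library left out, and fewer genes were called over all than with 4 libraries. With 1 library left out, log2 fold changes ran from 0.64 to 0.84 for CIT1 and from 0.67 to 0.80 for IDP1. The range was 1.27 to 1.68 for IDP2, 0.71 to 0.88 for LSC2 and 0.41 to 0.63 for SDH2. For the malate dehydrogenases it was 0.30 to 0.58 (MDH1), -0.54 to -0.40 (MDH2) and -0.52 to -0.32 (MDH3).

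**Figure D1:**
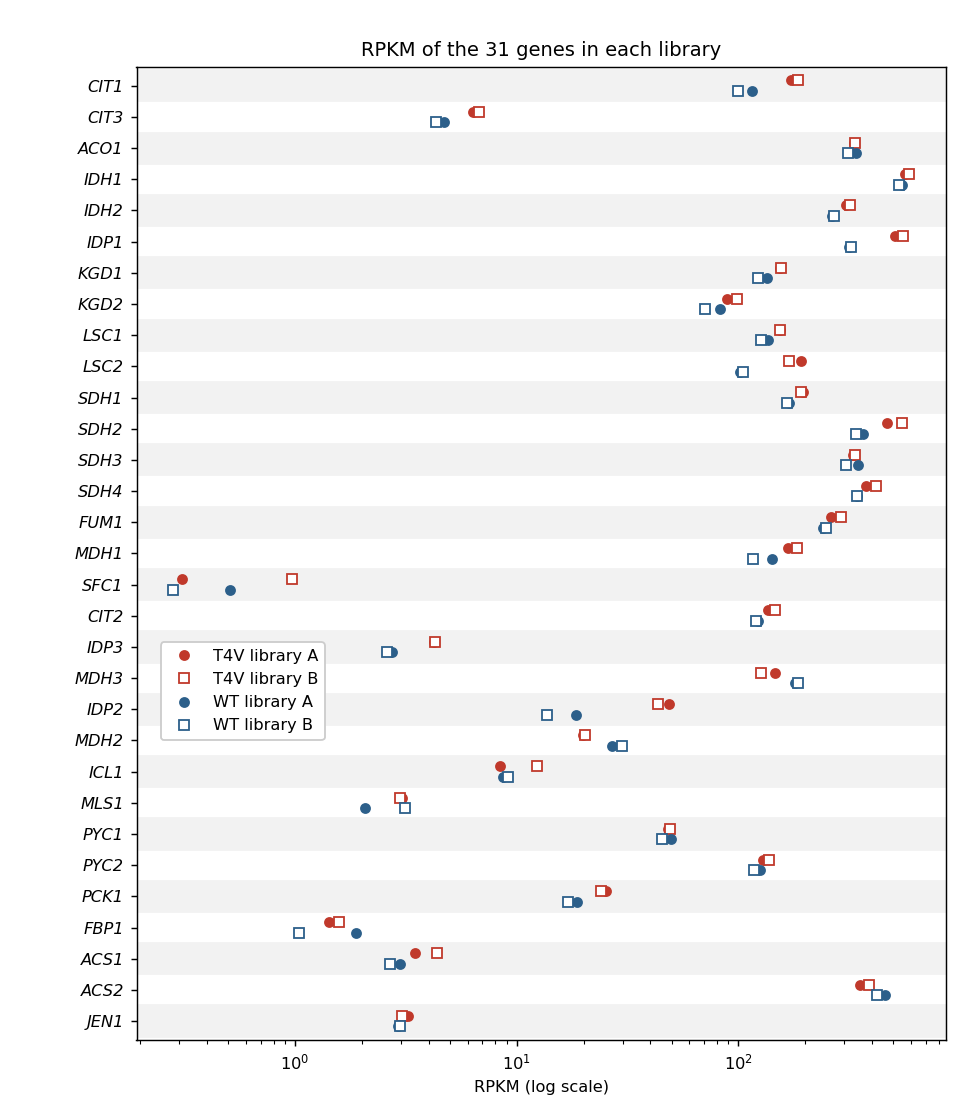
RPKM of the 31 genes in each of the 4 libraries, on a log axis, with T4V above WT in each row, circles for library A and squares for library B. Mitochondrial enzymes stand at the top and, apart from CIT3, lie above 70 RPKM, SFC1 is the lowest gene, and IDP2 shows the widest gap between T4V and WT among the genes called.

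Levels differed widely among the members. Mean RPKM over the 4 libraries was at least 100 for 18 genes, between 10 and 100 for 5 genes and under 10 for 8 genes. IDH1, a subunit of the NAD-dependent isocitrate dehydrogenase, was the most abundant member in all 4 libraries, with 564 and 588 RPKM in T4V and 546 and 530 RPKM in WT. The 8 genes under 10 RPKM were CIT3, IDP3, ICL1, MLS1, FBP1, JEN1, SFC1 and ACS1, and each library held between 1 and 88 reads for any of them. None of these was called by limma, with 0 of the 7 tested at an unadjusted p under 0.05 and 0 called by voom, although limma without the variance trend called IDP3 (adjusted p = 0.0423).

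CIT1, the mitochondrial citrate synthase that starts the cycle, had 173 and 186 RPKM in the T4V libraries, against 115 and 99.6 RPKM in the WT libraries. Both T4V values lay above both WT values. The log2 fold change was 0.74 ± 0.09 (SE), with a limma adjusted p of 0.00405. CIT1 (YNR001C) lies on chromosome XIV at 629622 to 631061, minus strand, of the R64 assembly, in a single exon like every member. ACO1, the aconitase of the next step, had 331 and 334 RPKM in T4V and 337 and 312 RPKM in WT, and these ranges overlapped. On the log2 scale its 95% interval was -0.13 to 0.19.

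Isocitrate is oxidised by an NAD enzyme with subunits IDH1 and IDH2, the committed step of the cycle, and by NADP enzymes encoded by IDP1, IDP2 and IDP3. IDH2 had 304 and 317 RPKM in T4V, against 264 and 269.9 RPKM in WT. Limma called neither NAD subunit, with log2 fold changes of 0.10 (limma adjusted p = 0.302) for IDH1 and 0.22 (adjusted p = 0.0588) for IDH2. Voom called IDH2 higher (adjusted p = 0.0189). Of the NADP genes, IDP1 and IDP2 rose. IDP1 (YDL066W, chromosome IV, 334835 to 336121, plus strand), the mitochondrial form, had 508 and 553 RPKM in T4V and 314 and 322 RPKM in WT, which is 0.74 ± 0.07 (SE) on the log2 scale (limma adjusted p = 0.00139).

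IDP2 (YLR174W, chromosome XII, 504591 to 505829, plus strand), the cytosolic form, showed the largest change of the 30 members tested. It had 48.8 and 43.2 RPKM in T4V, against 18.5 and 13.7 RPKM in WT, from 431 reads in T4V and 155 in WT. Its log2 fold change was 1.47 ± 0.16 (SE), with a limma adjusted p of 0.00272 and a 95% interval from 1.08 to 1.86. IDP3, the peroxisomal form that supplies NADPH for the oxidation of unsaturated fatty acids, had 4.25 and 4.27 RPKM in T4V and 2.73 and 2.60 RPKM in WT. These values did not overlap, but they rested on 41 reads in T4V and 26 in WT, and the 95% interval was -0.21 to 1.25 in log2.

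The next steps of the cycle are run by enzymes of several subunits. KGD1 and KGD2, subunits of the 2-oxoglutarate dehydrogenase complex, had log2 fold changes of 0.27 (limma adjusted p = 0.0599) and 0.28 (adjusted p = 0.115), and voom called both higher (adjusted p of 0.0031 and 0.0247). KGD1 was called by limma without WT library A, at 0.34 with an adjusted p of 0.0415. LSC2 (YGR244C, chromosome VII, 978036 to 979319, minus strand), the beta subunit of succinyl-CoA ligase, had 190.6 and 169.6 RPKM in T4V, against 102 and 104 RPKM in WT, a difference of 0.79 ± 0.08 (SE) in log2 (limma adjusted p = 0.00216). LSC1, the alpha subunit of the same enzyme, had 153.2 and 153.4 RPKM in T4V and 137 and 127 RPKM in WT, a difference of 0.22 in log2 (adjusted p = 0.0913). The ratio of LSC2 to LSC1 RPKM was 1.24 and 1.11 in T4V libraries A and B, against 0.747 and 0.825 in WT libraries A and B. This ratio was chosen after the values were seen and was not tested.

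Succinate dehydrogenase, which is also complex II of the respiratory chain, has 4 subunit genes on the list. SDH2 (YLL041C, chromosome XII, 53131 to 53931, minus strand), its iron-sulphur subunit, had 470.0 and 545 RPKM in T4V, against 365 and 341 RPKM in WT. Its log2 fold change was 0.52 ± 0.09 (SE), with a limma adjusted p of 0.0103. The flavoprotein gene SDH1 and the membrane anchor genes SDH3 and SDH4 were not called by limma, with log2 fold changes of 0.21, 0.03 and 0.21 and adjusted p of 0.0745, 0.815 and 0.0916. Voom called SDH1 (adjusted p = 0.0228) and SDH4 (adjusted p = 0.0480) higher, and did not call SDH3 (adjusted p = 0.824). The ratio of SDH2 to SDH3 RPKM was 1.43 and 1.63 in T4V libraries A and B, against 1.05 and 1.12 in WT libraries A and B. SDH2 over SDH1 was 2.41 and 2.84 in T4V, against 2.16 and 2.05 in WT, and SDH2 over SDH4 was 1.24 and 1.31 in T4V, against 1.07 and 0.989 in WT. These ratios were also chosen after the values were seen and were not tested. FUM1, the fumarase of mitochondrion and cytosol, had 261 and 289 RPKM in T4V and 240.5 and 249 RPKM in WT, with an adjusted p of 0.175.

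**Figure D2:**
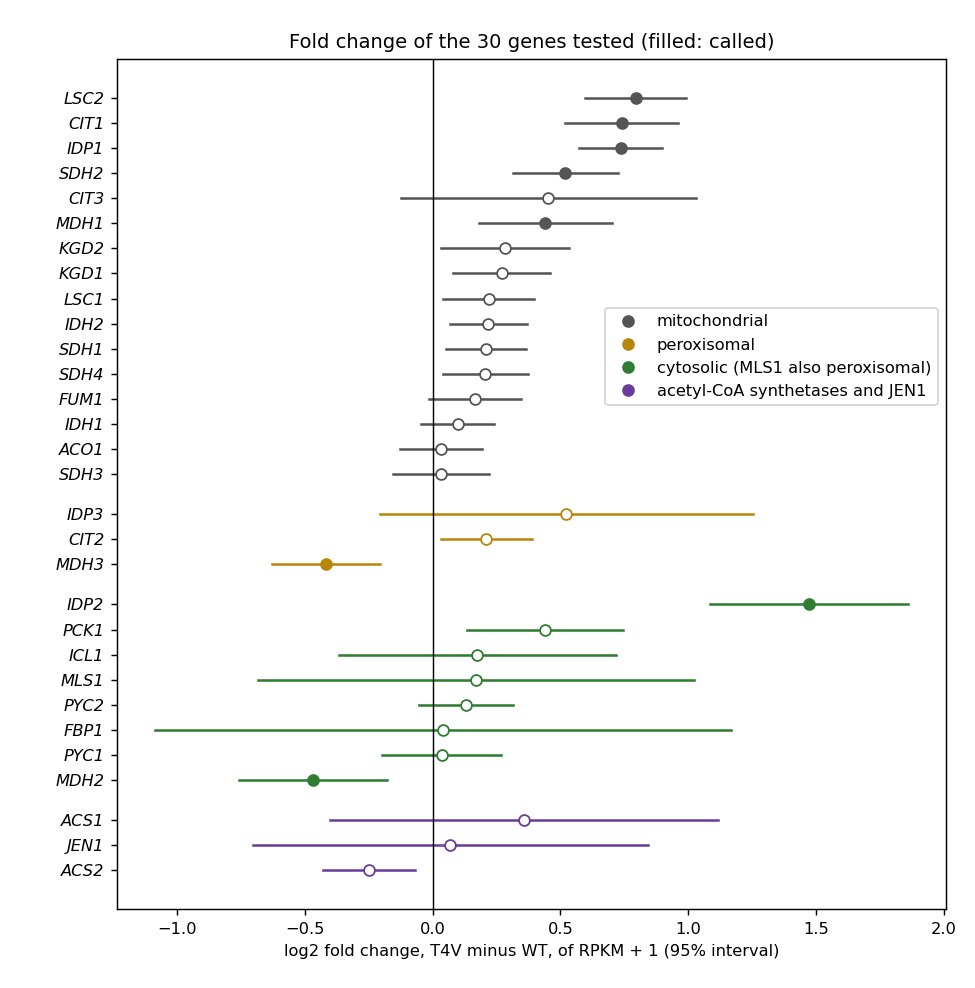
Log2 fold change (T4V minus WT, of RPKM + 1) of the 30 genes tested, with 95% intervals from limma and filled points for called genes, ordered by compartment. All 16 mitochondrial enzymes lie at or above 0.03, although ACO1 and SDH3 fall below 0 after median-of-ratios scaling and quantile normalization, while MDH2 and MDH3 lie on the opposite side from MDH1.

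Malate dehydrogenase closes the cycle, and its 3 genes did not move together. MDH1 (YKL085W, chromosome XI, 279123 to 280127, plus strand), the mitochondrial enzyme, had 167 and 183 RPKM in T4V, against 142 and 116 RPKM in WT, and rose by 0.44 ± 0.11 (SE) on the log2 scale with a limma adjusted p of 0.0368. MDH2 (YOL126C, chromosome XV, 81787 to 82920, minus strand), the cytosolic enzyme of gluconeogenesis and the glyoxylate cycle, had 20.0 and 20.3 RPKM in T4V, against 26.9 and 29.7 RPKM in WT. It fell by 0.47 on the log2 scale (SE 0.12, limma adjusted p = 0.0415). MDH3 (YDL078C, chromosome IV, 315357 to 316388, minus strand), the peroxisomal enzyme that reoxidises NADH from fatty acid oxidation, had 146 and 127 RPKM in T4V, against 180.1 and 185 RPKM in WT. It fell by 0.42 on the log2 scale (SE 0.09, limma adjusted p = 0.0211).

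Summed over the 3 genes, malate dehydrogenase RPKM was 332 ± 2.57 in T4V and 339.9 ± 13.0 in WT (SD, n = 2 each), a difference smaller than the SD in WT. MDH1 made up 52.8% ± 3.73 of the sum in T4V and 37.9% ± 3.93 in WT (SD, n = 2 each). MDH3 made up 41.2% ± 3.84 in T4V and 53.7% ± 3.03 in WT. MDH1 was thus the more abundant of the pair in both T4V libraries, and MDH3 in both WT libraries. The 3 calls were among the least stable. MDH1 lost its call without T4V library B (log2 fold change 0.38, adjusted p = 0.111) and without WT library B (0.30, adjusted p = 0.0728), MDH2 when any 1 library was left out (-0.54 to -0.40, adjusted p of 0.0602 to 0.144), and MDH3 without T4V library B (-0.32, adjusted p = 0.0899). With the gene filter kept from the 4 libraries, MDH3 also lost its call without T4V library A (adjusted p = 0.0903), WT library A (0.0551) or WT library B (0.0679).

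**Figure D3:**
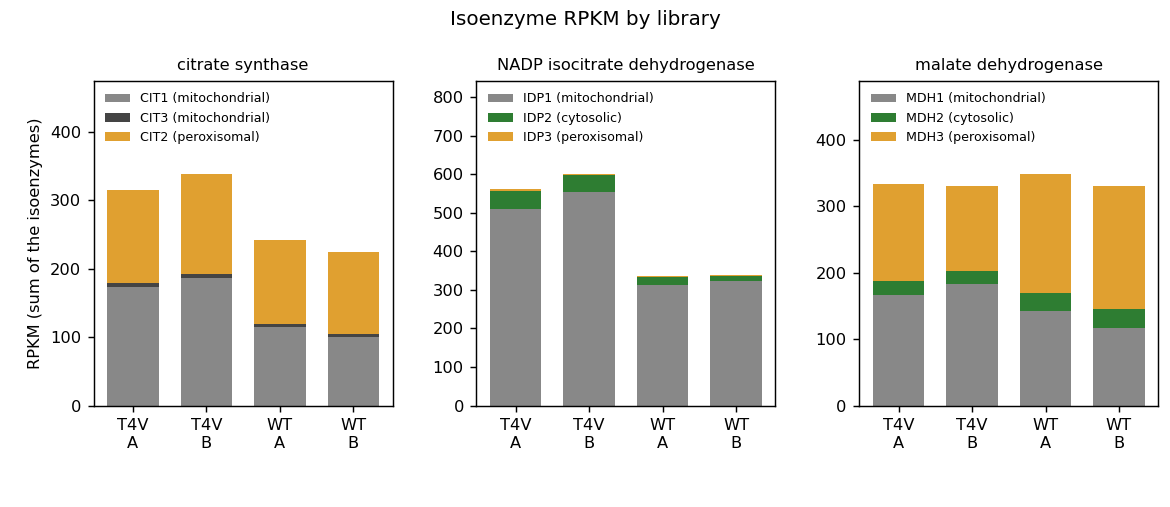
RPKM of the isoenzymes of 3 families in each library, stacked, with T4V libraries left of WT libraries and bars from 0. The citrate synthase and NADP isocitrate dehydrogenase sums are higher in both T4V libraries, and the malate dehydrogenase sum lies between 330.0 and 349 RPKM in all 4 libraries with a larger MDH1 share in T4V.

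Citrate synthase and NADP isocitrate dehydrogenase differed from malate dehydrogenase in their sums. Citrate synthase RPKM summed to 327 ± 16.5 in T4V and 233 ± 12.5 in WT (SD, n = 2 each). CIT1 made up 54.9% and 55.0% of it in the T4V libraries, against 47.4% and 44.4% in the WT libraries. CIT2, the peroxisomal form and a well-known target of the retrograde response to mitochondrial dysfunction, had 136 and 146 RPKM in T4V and 122 and 120.3 RPKM in WT (log2 fold change 0.21, limma adjusted p = 0.104, voom adjusted p = 0.0476). CIT3, a minor mitochondrial form, had 6.32 and 6.75 RPKM in T4V and 4.71 and 4.31 RPKM in WT, with a 95% interval in log2 from -0.12 to 1.03. NADP isocitrate dehydrogenase RPKM summed to 581 ± 27.8 in T4V and 337 ± 2.54 in WT, of which IDP2 made up 7.94% ± 1.07 in T4V and 4.78% ± 1.04 in WT.

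Setting mitochondrial forms against cytosolic or peroxisomal ones within each library removes a scaling factor common to a library, apart from the pseudocount. Of 6 such log2 ratios, both T4V values lay above both WT values in 5 and below them in 1. CIT2, IDP1 and MDH1 each enter more than 1 of these ratios, so the ratios are not independent. No share over other gene pairs was computed to set beside this count. The ratio of MDH1 to MDH2 RPKM was 8.37 and 9.02 in T4V libraries A and B, against 5.29 and 3.92 in WT libraries A and B. The difference in log2 ratio was 0.91 for MDH1 over MDH2, 0.86 for MDH1 over MDH3 and 0.53 for CIT1 over CIT2. It was -0.74 for IDP1 over IDP2, the pair in which the cytosolic form moved further. For CIT3 over CIT2 it was 0.24, with only 23 to 42 CIT3 reads in each library. For IDP1 over IDP3 it was 0.21 on the log2(RPKM + 1) scale, but the plain ratios, 119.7 and 129 in T4V against 115 and 124 in WT, overlapped. MDH2 over MDH3 differed by -0.05, with overlapping libraries. Over 10 pairs compared, the exact permutation test (2-sided) gave p = 0.333 for 9 and 1 for MDH2 over MDH3, or 0.370 and 1 after Benjamini-Hochberg adjustment over the pairs. With 2 libraries per genotype 0.333 is the smallest p this test allows, so no pair could pass.

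**Figure D4:**
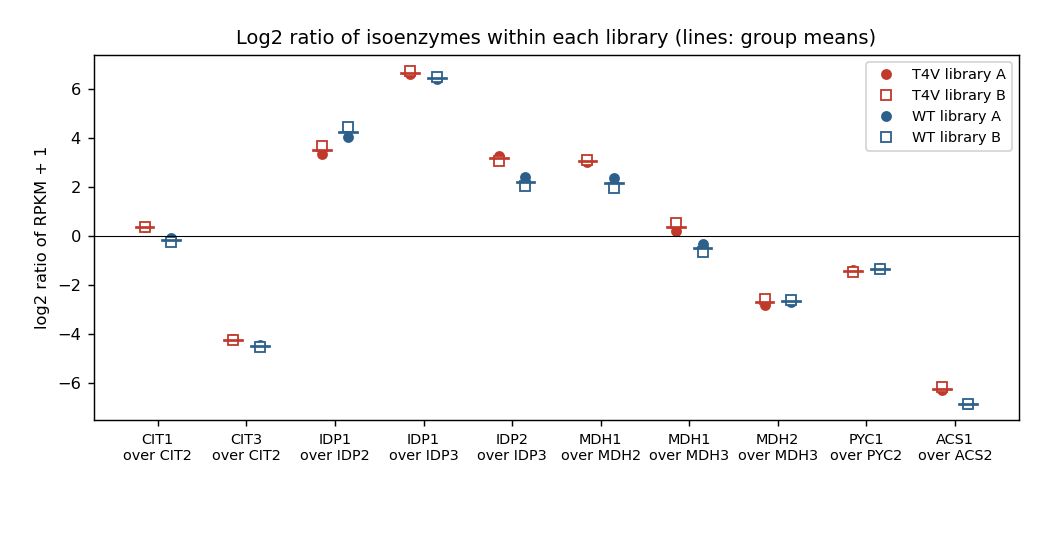
Log2 ratio of RPKM + 1 between isoenzymes within each library for the 10 pairs, with T4V left of WT, circles for library A, squares for library B and lines for group means. The MDH1 ratios and CIT1 over CIT2 sit higher in T4V, IDP1 over IDP2 sits lower, and MDH2 over MDH3 does not separate.

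Reads can be shared between paralogs only where their sequences match. Coding sequences of the citrate synthase, NADP isocitrate dehydrogenase and malate dehydrogenase isoenzymes were 60.8% to 73.7% identical over aligned bases, and the longest run shared by any such pair was 23 bases, between IDP1 and IDP2. PYC1 and PYC2 were 85.5% identical and shared a run of 200 bases, so the split of reads between them is uncertain. No other annotated R64 gene overlapped a member, but 1078 entries of the deposited table were not matched to R64 and could not be placed.

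The enzymes particular to the glyoxylate cycle had low RPKM in both genotypes. ICL1, isocitrate lyase, had 8.37 and 12.3 RPKM in T4V and 8.66 and 9.15 RPKM in WT, and MLS1, malate synthase, had 3.04 and 2.96 RPKM in T4V and 2.07 and 3.12 RPKM in WT. Both pairs of groups overlapped. The 95% interval was -0.37 to 0.72 for ICL1 and -0.68 to 1.02 for MLS1 in log2, so a rise of 1.5-fold lay within both intervals.

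Gluconeogenic genes were not called by limma. PCK1, phosphoenolpyruvate carboxykinase, had 25.3 and 24.0 RPKM in T4V, against 18.8 and 17.1 RPKM in WT, values that did not overlap (log2 fold change 0.44, limma adjusted p = 0.0591, voom adjusted p = 0.0183). FBP1, fructose-1,6-bisphosphatase, had 1.42 and 1.57 RPKM in T4V and 1.88 and 1.05 RPKM in WT, with 12 reads in each genotype. PYC1 and PYC2, the cytosolic pyruvate carboxylases that make oxaloacetate, had log2 fold changes of 0.03 and 0.13. Of PCK1, FBP1, PYC1 and PYC2, limma called 0, while 1 had an unadjusted p under 0.05 and PCK1 was called by voom.

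The transporters and acetyl-CoA synthetases completed the list. JEN1, the lactate and pyruvate permease of the plasma membrane, had 3.22 and 3.04 RPKM in T4V and 2.92 and 2.96 RPKM in WT. SFC1, the mitochondrial succinate-fumarate carrier, had 5 reads over the T4V libraries and 3 over the WT libraries, too few to be tested. ACS2, the acetyl-CoA synthetase of glucose-grown cells and the source of nuclear acetyl-CoA, had 354 and 388 RPKM in T4V, against 459 and 424 RPKM in WT. Its groups did not overlap, but it missed the threshold on the deposited scale (log2 fold change -0.25, limma adjusted p = 0.0657). It passed after median-of-ratios scaling (adjusted p = 0.0354), after quantile normalization (0.0420), with voom (0.00325) and without WT library B (0.0437). ACS1, the form repressed by glucose, had 3.48 and 4.38 RPKM in T4V and 2.98 and 2.68 RPKM in WT (adjusted p = 0.477).

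The promoters of the member with the largest change and of the 3 malate dehydrogenase genes are shown because these genes moved in opposite directions. Each is the 300 bases before the start codon, read 5′ to 3′ on the strand of the gene from the RefSeq R64 genome, at chrXII:504291-504590 (plus) for IDP2, chrXI:278823-279122 (plus) for MDH1, chrXV:82921-83220 (minus) for MDH2 and chrIV:316389-316688 (minus) for MDH3. Capitals mark CCAAT or its reverse complement ATTGG, the core bound by the Hap2-Hap3-Hap4-Hap5 complex, an activator of respiratory genes.
IDP2 promoter: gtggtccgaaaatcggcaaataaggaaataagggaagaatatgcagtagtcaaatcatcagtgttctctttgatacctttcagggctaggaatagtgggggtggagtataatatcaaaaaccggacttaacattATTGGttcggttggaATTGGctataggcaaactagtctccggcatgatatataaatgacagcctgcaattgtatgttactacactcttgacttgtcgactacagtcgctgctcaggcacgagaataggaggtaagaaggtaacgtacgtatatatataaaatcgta
MDH1 promoter: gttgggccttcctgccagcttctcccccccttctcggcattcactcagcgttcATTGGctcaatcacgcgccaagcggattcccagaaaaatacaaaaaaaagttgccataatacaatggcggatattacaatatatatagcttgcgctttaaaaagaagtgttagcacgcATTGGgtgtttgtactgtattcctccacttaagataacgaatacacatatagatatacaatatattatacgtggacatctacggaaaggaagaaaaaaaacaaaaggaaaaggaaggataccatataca
MDH2 promoter: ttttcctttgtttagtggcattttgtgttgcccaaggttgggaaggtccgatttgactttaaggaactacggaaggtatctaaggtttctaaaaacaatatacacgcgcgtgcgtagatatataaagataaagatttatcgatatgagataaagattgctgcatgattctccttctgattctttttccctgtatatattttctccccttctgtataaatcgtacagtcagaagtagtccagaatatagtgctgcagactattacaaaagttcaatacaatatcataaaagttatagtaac
MDH3 promoter: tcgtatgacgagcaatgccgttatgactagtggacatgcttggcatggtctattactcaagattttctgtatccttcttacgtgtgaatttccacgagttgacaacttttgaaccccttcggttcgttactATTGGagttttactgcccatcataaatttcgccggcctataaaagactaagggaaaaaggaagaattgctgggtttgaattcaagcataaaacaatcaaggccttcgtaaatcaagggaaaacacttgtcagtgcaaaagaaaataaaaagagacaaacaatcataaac

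The IDP2 window held 2 copies of the CCAAT core, MDH1 2, MDH3 1 and MDH2 none. Across the members, 23 of 31 windows (74.2%) held CCAAT on either strand, against 41.8% of 6001 protein-coding genes with such a window. The motif was present in 5 of the 6 genes that rose (LSC2 lacked it), in 1 of the 2 that fell and in 17 of the other 23. More than 1 copy was found in 3 of the 6 that rose and in 0 of the 2 that fell. It was also found in 4 of the other 23 (ACO1, SDH1, SDH3 and PYC2). CIT1 and IDP1, which rose, held 1 copy each. Whether copy number goes with the direction of change was not tested, and no share of all promoters with more than 1 copy was computed. GTCAC, the core bound by Rtg1-Rtg3, was in 9 of the 31 windows (29.0%) and in 26.5% of all. CCNNNNNNCCG, a loose form of the carbon source response element bound by Cat8 and Sip4, was in 2 (6.45%) and in 11.1% of all. A match is a stretch of letters and not a shown binding site.

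Genes next to the members were also examined. Of the 16 genes flanking the 8 called members, 14 were tested and 1 was called, SDA1, which lies 445 bases upstream of LSC2 on the same strand and fell by 0.99 on the log2 scale (limma adjusted p = 0.00422). Around the members not called, 7 of 41 tested neighbours were higher and 1 was lower. Over all tested genes these shares were 11.7% and 6.25%, and the difference between neighbours of called and uncalled members was not tested.

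Among 18 regulators of these genes, limma called HAP4 alone, where 11.7% of all tested genes were called higher and 6.25% lower. HAP4, the subunit whose level sets the activity of the Hap complex, had 103 and 100.5 RPKM in T4V, against 75.6 and 80.2 RPKM in WT, a log2 fold change of 0.38 (adjusted p = 0.0207). Voom on the 4 libraries called 1 of the 18, where it called 17.9% of all tested genes higher and 10.4% lower. The limma call of HAP4 was lost without T4V library A, without T4V library B and without WT library A. In each of these fits fewer genes were also called over all. Its DNA-binding partners HAP2, HAP3 and HAP5 had log2 fold changes of -0.12, 0.13 and -0.30 and were not called. RTG1 and RTG3, the retrograde activators, stood at 0.21 (limma adjusted p = 0.346) and 0.05 (adjusted p = 0.656). CAT8, the activator of gluconeogenic genes, and MIG1, the glucose repressor, stood at -0.16 (adjusted p = 0.615) and 0.04 (adjusted p = 0.797).

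Genes that supply the cycle or help to assemble its enzymes were called higher in several lists. Beside each count stand the 11.7% of all tested genes called higher and the 6.25% called lower. No list was tested as a set. Of 12 genes of pyruvate entry and oxidation, 3 rose, with a median log2 fold change of 0.25. MPC2 (YHR162W in the table), a subunit of the mitochondrial pyruvate carrier, had 468 and 434 RPKM in T4V and 308 and 302 RPKM in WT. MPC1 (listed as FMP37), its partner, rose by 0.58, and PDA1, the E1 alpha subunit of pyruvate dehydrogenase, by 0.27. Of 8 genes for succinate dehydrogenase assembly and subunit paralogs, 3 rose. SDH6 (YDR379C-A), an assembly factor, had 53.4 and 66.5 RPKM in T4V, against 27.7 and 26.2 RPKM in WT, which is 1.12 higher in log2 (limma adjusted p = 0.00308). SHH3 (YMR118C), a paralog of SDH3, rose by 0.76, and SDH5 (listed as EMI5), needed to attach flavin to SDH1, by 0.37.

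Of 9 genes whose products mark gluconeogenic enzymes for degradation when glucose returns, 4 rose, with a median of 0.43. Over all tested genes 11.7% were called higher, which also stands beside the counts of the lists that follow. VID24, the subunit that recognises the enzymes, had 127 and 126 RPKM in T4V, against 85.1 and 73.6 RPKM in WT (log2 fold change 0.67, limma adjusted p = 0.00554). GID7, UBC8 and VID28 rose by 0.63, 0.47 and 0.43. YAT2, a carnitine acetyltransferase, rose by 0.85 and was the only gene called among the 6 tested in its list. KGD4 (listed as YMR31), which holds the 2-oxoglutarate dehydrogenase complex together, rose by 0.46, while MAE1, the malic enzyme, stood at 0.04. Among 7 tested carriers of cycle acids limma called 0, with 0 at an unadjusted p under 0.05 and 0 called by voom, and their median was -0.01.

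Over all 7 lists 13 of 63 tested genes rose and 0 fell by limma, and voom called 19 higher and 0 lower. At an unadjusted p under 0.05, limma had 21 higher and 1 lower. Over all tested genes limma called 11.7% higher and 6.25% lower, and voom called 17.9% higher and 10.4% lower. No share over all genes was computed at the unadjusted threshold. The genes of these lists were chosen with earlier results of these data known, so this comparison is not an independent test. Leaving out either T4V library lowered the number of these genes called higher, and also the number called higher over all genes. When the gene filter was kept from the 4 libraries, these genes lost their calls, as did most genes called over all. Such fits leave 1 library in a genotype.

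**Figure D5:**
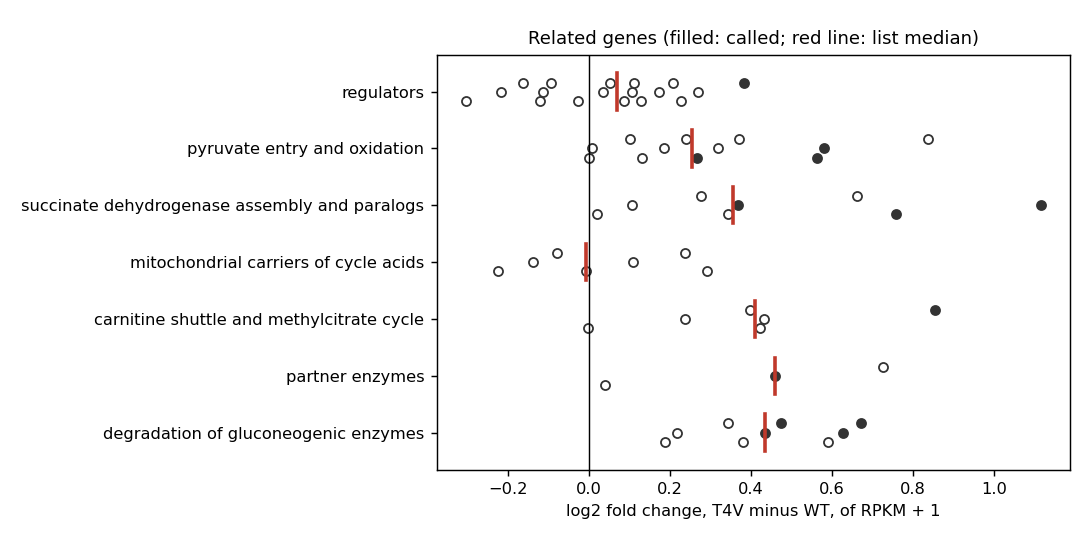
Log2 fold change (T4V minus WT, of RPKM + 1) of the related genes by list, with filled points for called genes and a red line at each list's median. List medians run from -0.01 for carriers to 0.46 for partner enzymes, and no called gene lies below 0.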

How the data were processed

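Per the labels' protocols, RNA was selected on oligo-dT beads, fragmented, and made into strand-specific libraries with PCR, which were read on an Illumina Genome Analyzer IIx. Per the submitters' processing notes, Bowtie2 and sacCer3 were used. The sources used here name no counting program, annotation or strand setting. The authors deposited RPKM values in 1 table with a column for each library. The column names gave the genotype and a letter but no replicate number, so libraries are called A and B.

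Low RPKM values were whole multiples of 1 read once multiplied by the exon length of the R64 annotation (the release behind sacCer3, 6048 genes matched by systematic name). Between 99.4% and 99.6% of low genes fell within 0.1 of a whole number of reads, which gave the library sizes and the recovered reads. PCR copies were not marked by molecular identifiers, so reads are not independent molecules.

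The test was limma 3.58.1 (R 4.3.3) on log2(RPKM + 1), with variances moderated along a trend with abundance, 2-sided, over genes that reached 1 RPKM in 2 or more libraries, and Benjamini-Hochberg adjustment over all of them. It was tested on simulated data. Isoenzyme ratios were compared with an exact permutation test over libraries (scipy 1.17.1). Alternatives changed the pseudocount, filter, scaling and variance model, used voom, or left out a library. Every member is named. Of the related lists, called genes are named, at most 4 per list with the largest change, and RTG1, RTG3, HAP4, CAT8 and MIG1 always. Values of HAP2, HAP3, HAP5 and MAE1 are given in addition to that rule, and were chosen after they were seen, as was SDA1. The members, lists and tests were chosen with earlier results of these data known.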

Additional observations from a re-analysis of the deposited data

How the results depend on the processing

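CIT1, IDP1, IDP2 and LSC2 kept their direction and their call under each of the 12 alternatives planned, and SDH2 under 11 of 12, missing without the variance trend (adjusted p = 0.0771). MDH3 was called in 10, MDH1 in 7 and MDH2 in 6 of 12. Members called higher were 13 with voom, and 0 to 7 when 1 library was left out. Members called lower were 1 without a filter on low values, 0 by limma without the variance trend (2 at an unadjusted p under 0.05, and 3 called by voom), and 0 to 2 when 1 library was left out. Over all genes, calls higher in T4V were 453 after quantile normalization and 265 without the trend, and 10 to 652 with 1 library left out. Calls lower in T4V were 134 without the trend and 579 with voom, and 6 to 321 with 1 library left out. Related genes called higher were 5 without the trend and 0 to 16 with 1 library left out.

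The lowest counts came from an alternative chosen after seeing the data, in which the genes kept with 4 libraries were also tested with 3. Then 19 genes had no variance without a T4V library, and the prior degrees of freedom were 3.00, against 8.03 to 8.11 with the filter applied to the 3 libraries fitted.

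Directions of members near 0 turned. After median-of-ratios scaling ACO1 stood at -0.029, SDH3 at -0.032 and PYC1 at -0.028, and after quantile normalization ACO1 stood at -0.034, SDH3 at -0.025, PYC1 at -0.018, MLS1 at -0.11, FBP1 at -0.26 and JEN1 at -0.23. With 1 library left out, ACO1 ran from -0.021 to 0.090, SDH3 from -0.060 to 0.12, PYC1 from -0.033 to 0.10, ICL1 from -0.081 to 0.43, MLS1 from -0.043 to 0.38, FBP1 from -0.21 to 0.29 and the log2 ratio of MDH2 over MDH3 from -0.16 to 0.062. The cause was not tested. No other isoenzyme ratio changed direction. The columns carry letters and no replicate numbers, so nothing shows that libraries with the same letter form a pair. The differences between libraries A and B correlated with r = -0.015 over genes between T4V and WT. A replicate block by letter, chosen after seeing the data, called 744 genes higher and 393 lower, the same 6 and 2 members, and 16 related genes higher. Depth limits the 8 members under 10 RPKM.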
